A study of Homo sapiens with 4 samples.

Results

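Thioredoxins, peroxiredoxins and sulfiredoxin form a relay that removes peroxides and keeps protein thiols reduced. The genes described here are 10 members of that system, chosen by symbol from a table of 20515 genes: the thioredoxins TXN and TXN2, the thioredoxin reductases TXNRD1 and TXNRD2, the sulfiredoxin SRXN1 and the peroxiredoxins PRDX1, PRDX2, PRDX3, PRDX5 and PRDX6. All 10 were found and all 10 passed the filter on low counts. They were measured by poly(A) RNA sequencing in T47D cells, an established human luminal breast cancer line. There were 2 control libraries and 2 libraries of cells given baicalein, a flavone from Scutellaria roots, and no other agent or genotype is listed. Neither dose, duration nor vehicle is given in the sources used here. It is also not stated whether the 2 libraries of a condition came from different cultures, and p-values therefore reflect the spread between libraries, possibly only technical spread.

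As background, a peroxiredoxin reduces hydrogen peroxide or an organic peroxide with a reactive cysteine, which is then itself oxidised. Thioredoxin reduces that cysteine again, and thioredoxin reductase, a selenocysteine-containing flavoenzyme, restores thioredoxin with electrons from NADPH. When peroxide is plentiful the cysteine of the typical 2-Cys peroxiredoxins (PRDX1 to PRDX4) can be oxidised too far for thioredoxin, and sulfiredoxin is the enzyme that rescues it at the cost of ATP. The cytosol and the mitochondria hold separate versions of the relay, with TXN and TXNRD1 in the former and TXN2, TXNRD2 and PRDX3 in the latter. Several of these genes are textbook targets of NRF2, a transcription factor that responds to electrophiles and oxidants.

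After baicalein, SRXN1 rose 7.49-fold and TXNRD1 rose 5.59-fold, TXN and PRDX5 rose by less than 1.5-fold, and the other 6 genes fell: PRDX2, TXNRD2, PRDX3, TXN2, PRDX1 and PRDX6. The count itself is no result about these genes, since 75.0% of the 18369 genes tested passed edgeR's quasi-likelihood test at a Benjamini-Hochberg adjusted p under 0.05, 37.4% as higher and 37.6% as lower. What sets the members apart from each other is size. SRXN1 and TXNRD1 ranked 326 and 481 from the top among all log2 fold changes, whereas PRDX2, the member that fell the most, ranked 2916 from the bottom. The median log2 fold change of the 10 was -0.31, against 0.00 over all genes tested. Against a 1.5-fold change, SRXN1 and TXNRD1 were still called higher and PRDX2, PRDX3 and TXNRD2 lower. That stricter test called 16.8% of all genes higher and 19.5% lower.

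**Figure D1:**
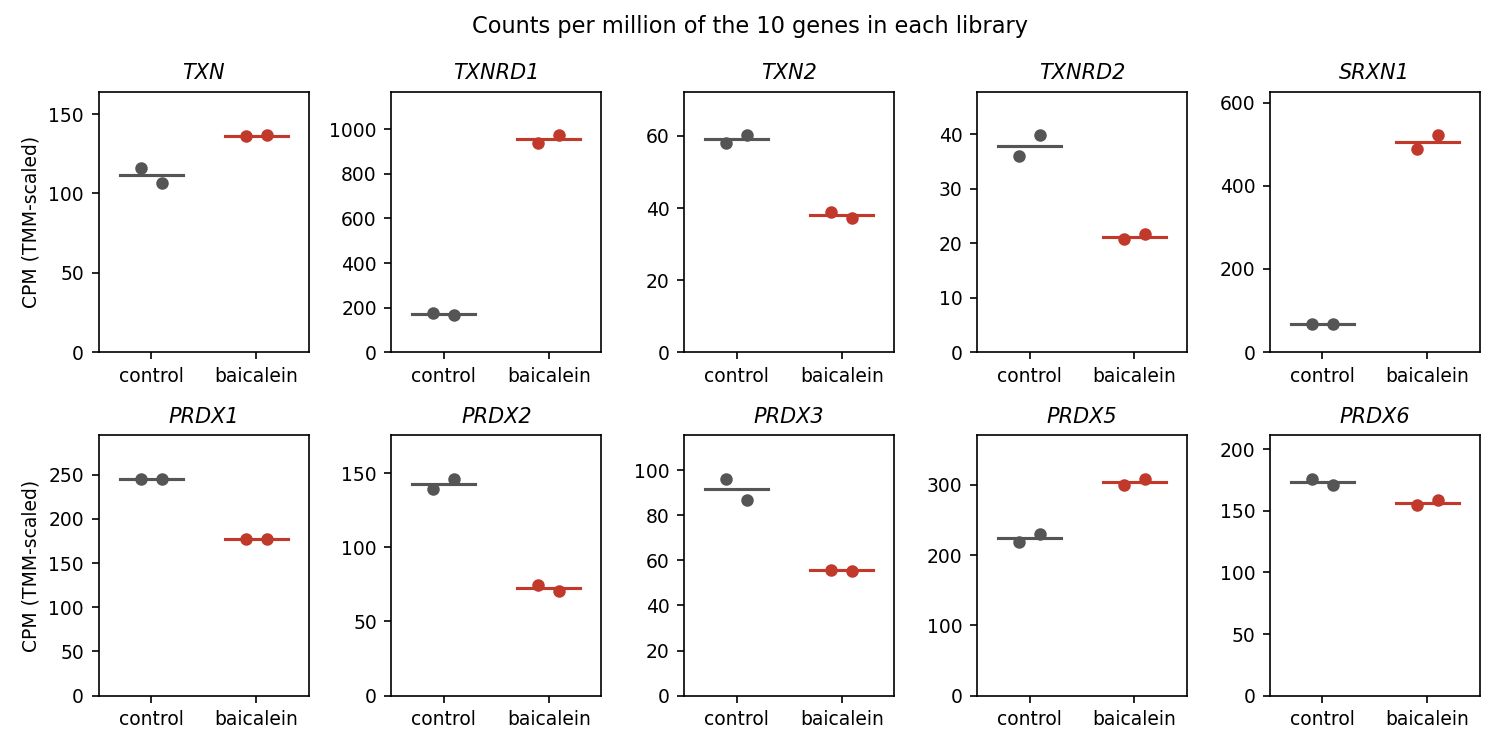
CPM (counts scaled to library size with TMM factors, linear axis from 0) of each gene, with 1 point per library and a bar at the group mean (n = 2 libraries per group). Control and baicalein points do not overlap in any of the 10 panels, which also held for 86.9% of all genes tested. The SRXN1 and TXNRD1 panels hold the largest steps, from 67.4 to 505 and from 171 to 955 CPM.

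Total counts were 38597207 to 56732569 per library. Counts of the 10 genes ran from 807 to 51287 in a library, so counting error is small beside the differences. The luminal markers KRT8, KRT18, KRT19, EPCAM, CDH1, ESR1, PGR, GATA3 and FOXA1 were all present, with summed levels of 12879 and 14177 CPM in the controls and 7295 and 7412 CPM after baicalein. Of 3 leucocyte markers 2 had rows, with sums of 0.296 to 0.510 CPM. Of 4 fibroblast markers COL1A1 stood at 90.03 to 149.9 CPM but its partner COL1A2 at 0.106 CPM or less, and of 3 basal markers the row for KRT17 held 0.148 to 1.07 CPM. COL1A1 and KRT17 were both called higher, with log2 fold changes of 0.61 and 2.29. The luminal sums are mostly keratins. Of the 9 luminal markers 7 were called lower and EPCAM was not called (log2 fold change 0.10). CDH1 was called higher (545 and 565 CPM in controls, 1057 and 1079 CPM after baicalein). The part of the markers' changes in the results below was not tested. In bulk RNA a fall can mean fewer cells with a transcript or less of it per cell, and these cannot be told apart.

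SRXN1 encodes sulfiredoxin, the ATP-dependent repair enzyme of overoxidised peroxiredoxins (ENSG00000271303, chromosome 20, positions 646615 to 653370 of GRCh38, minus strand). Its level was 67.5 and 67.3 CPM in control 1 and 2 and 488 and 521 CPM in baicalein 1 and 2. The controls were nearly identical and both treated libraries were far above them. The log2 fold change was 2.91 (SE 0.05, 95% interval 2.80 to 3.01, edgeR adjusted p = 1.23e-22). GENCODE release 29 places a second gene model, AL121758.1, on the same strand with 2292 bases of shared exon; it was not analysed here, so reads that fit both models are a limit on SRXN1.

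TXNRD1 encodes the cytosolic thioredoxin reductase (ENSG00000198431, chromosome 12, positions 104215779 to 104350305, plus strand). It stood at 174 and 168 CPM in the controls and at 938 and 973 CPM after baicalein. The groups were far apart relative to the spread within each, and the log2 fold change was 2.48 (SE 0.04, 95% interval 2.39 to 2.57, edgeR adjusted p = 2.98e-22). TXNRD1 thereby had the highest CPM of the 10 genes after baicalein, while in both controls PRDX1 and PRDX5 were above it on that scale and PRDX6 slightly above it. TXN, the cytosolic thioredoxin that this enzyme reduces (ENSG00000136810, chromosome 9, positions 110243811 to 110256640, minus strand), moved little beside it. Its level was 116 and 106 CPM in controls and 136 and 137 CPM after baicalein. Both treated libraries lay above both controls by more than the controls differed from each other. The result was a fold change of 1.23 (95% interval 1.15 to 1.31, edgeR adjusted p = 5.38e-06).

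The promoter windows of these 3 genes are shown because they share a direction and differ in size. Each is the 250 bases before a RefSeq transcript start on GRCh38.p14, and TXNRD1 has 2 annotated starts far apart. Capitals mark matches on either strand to the core of the antioxidant response element bound by NRF2, searched as TGACNNNGC, and to the core of the xenobiotic response element bound by the aryl hydrocarbon receptor, searched as GCGTG, which reads CACGC on the other strand.
TXNRD1 start 1, chr12:104215529-104215778, plus strand: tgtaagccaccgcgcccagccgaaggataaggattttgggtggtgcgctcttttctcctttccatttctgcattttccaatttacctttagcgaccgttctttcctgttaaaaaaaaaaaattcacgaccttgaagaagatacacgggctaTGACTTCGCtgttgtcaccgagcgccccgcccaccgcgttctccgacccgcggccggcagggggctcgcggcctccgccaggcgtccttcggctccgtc
TXNRD1 start 2, chr12:104286782-104287031, plus strand: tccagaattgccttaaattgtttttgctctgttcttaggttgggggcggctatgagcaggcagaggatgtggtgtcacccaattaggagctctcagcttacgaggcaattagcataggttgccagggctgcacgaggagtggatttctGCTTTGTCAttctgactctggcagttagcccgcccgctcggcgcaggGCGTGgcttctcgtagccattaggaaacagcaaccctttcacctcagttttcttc
TXN, chr9:110256508-110256757, minus strand: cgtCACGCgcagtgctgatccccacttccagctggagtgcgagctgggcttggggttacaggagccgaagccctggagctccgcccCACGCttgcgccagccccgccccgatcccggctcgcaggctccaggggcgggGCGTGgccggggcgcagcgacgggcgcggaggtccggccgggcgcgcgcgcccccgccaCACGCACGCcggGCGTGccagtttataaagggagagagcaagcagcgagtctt
SRXN1, chr20:653201-653450, minus strand: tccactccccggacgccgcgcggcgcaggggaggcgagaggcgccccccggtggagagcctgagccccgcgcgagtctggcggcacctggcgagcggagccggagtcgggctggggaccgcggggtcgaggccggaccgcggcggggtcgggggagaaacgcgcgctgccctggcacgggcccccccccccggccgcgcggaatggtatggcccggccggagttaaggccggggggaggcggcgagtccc
Both TXNRD1 windows held 1 match to TGACNNNGC, as TGACTTCGC starting 99 bases before start 1 and, on the reverse strand, as TGACAAAGC in a match whose leftmost base is 102 bases before start 2. The second window also held 1 GCGTG. The TXN window held no antioxidant element core but 6 xenobiotic element cores, a pair of which share a base. The SRXN1 window held neither, which says only that these letters are not in this window. Over all 35116 windows of this length, 10.9% held TGACNNNGC and 32.2% held GCGTG. Of the 10 genes 7 had an entry, with 11 windows in all. The antioxidant core was found in 1 gene (TXNRD1) and the xenobiotic core in 4 (TXN, TXNRD1, PRDX2 and PRDX5). These are counts of genes, some with several windows, and cannot be set beside the shares per window. Of the genes with the xenobiotic core, PRDX2 fell and PRDX5 rose, and any link of these letters to direction was not tested. A match is a description of letters, not evidence of binding.

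TXN2, TXNRD2 and PRDX3 of the mitochondrial branch all fell, where 37.6% of all genes tested were called lower. PRDX5, which is found in mitochondria among other places, rose (log2 fold change 0.44). TXN2, the mitochondrial thioredoxin (ENSG00000100348, chromosome 22, positions 36467036 to 36482030), stood at 58.1 and 60.2 CPM in controls and at 38.8 and 37.3 CPM after baicalein. Its log2 fold change was -0.63 (SE 0.05, edgeR adjusted p = 1.54e-10), and both treated libraries were below both controls. TXNRD2, the reductase of TXN2 (ENSG00000184470, chromosome 22, positions 19875517 to 19941992), fell from 36.0 and 39.8 CPM to 20.7 and 21.7 CPM, a log2 fold change of -0.84 (SE 0.06, edgeR adjusted p = 3.23e-11). TXNRD2 was the least abundant of the 10 on the CPM scale in every library.

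PRDX3, a mitochondrial peroxiredoxin (ENSG00000165672, chromosome 10, positions 119167703 to 119178833), had 96.2 and 86.8 CPM in controls and 55.9 and 55.1 CPM after baicalein. Its treated libraries were closer together than its controls and well below both, with a log2 fold change of -0.72 (SE 0.05, edgeR adjusted p = 1.56e-11). TXN2, PRDX3 and TXNRD2 thus fell 1.55-fold, 1.65-fold and 1.79-fold. The mitochondrial and cytosolic reductases, TXNRD2 and TXNRD1, changed in opposite directions, as did the thioredoxins TXN2 and TXN.

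The typical 2-Cys peroxiredoxins of the cytosol also fell. PRDX2 (ENSG00000167815, chromosome 19, positions 12796820 to 12801859), an abundant peroxide scavenger of the cytosol, went from 140 and 146 CPM to 74.7 and 70.4 CPM. Its log2 fold change of -0.98 (SE 0.04, 95% interval -1.07 to -0.88, edgeR adjusted p = 5.53e-15) was the most negative among the 10, and 28.8% of all genes tested changed by more than PRDX2 in either direction. PRDX1 (ENSG00000117450, chromosome 1, positions 45511036 to 45523047) had 245 CPM in both controls and 177 CPM in both treated libraries, a 1.39-fold fall with a log2 fold change of -0.47 (SE 0.04, edgeR adjusted p = 1.25e-09). Its replicates differed by less than 1 CPM in each group. Exons of MMACHC on the opposite strand share 379 bases with PRDX1, but MMACHC stood at only 7.79 to 10.1 CPM. No source used here says whether reads were counted by strand, so reads from the shared bases cannot be told apart. GENCODE lists 16 processed or other pseudogene copies of these families; 2 of them, PRDX1P1 and PRDX3P1, had rows, with 3 to 18 counts per library. Reads that fit a parent gene and a copy equally well remain a limit on PRDX1 and PRDX3.

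PRDX4, the typical 2-Cys peroxiredoxin of the endoplasmic reticulum and not one of the 10, did not pass, with 122 and 118 CPM in controls and 120 and 124 CPM after baicalein (log2 fold change 0.02, 95% interval -0.07 to 0.11, edgeR adjusted p = 0.648). Its groups overlapped. This interval lies above those of PRDX1, PRDX2 and PRDX3, whose upper ends are -0.38, -0.88 and -0.61; the differences between genes were not tested.

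PRDX5 and PRDX6 belong to other classes, and they parted. PRDX5, an atypical 2-Cys peroxiredoxin found in mitochondria, peroxisomes and cytosol (ENSG00000126432, chromosome 11, positions 64318088 to 64321811), had 219 and 229 CPM in controls and 299.9 and 309 CPM after baicalein. It was the only 1 of the 5 peroxiredoxin members that rose, with a log2 fold change of 0.44 (SE 0.04, edgeR adjusted p = 5.60e-09) and no overlap between groups. PRDX6, a 1-Cys peroxiredoxin that also has phospholipase activity (ENSG00000117592, chromosome 1, positions 173477266 to 173488807), had 176 and 171 CPM in controls and 154 and 159 CPM after baicalein. The fall of 1.11-fold (log2 fold change -0.15, SE 0.04, edgeR adjusted p = 0.00446) was the smallest change among the 10. The call was lost without baicalein 1 (adjusted p = 0.169) and without baicalein 2 (adjusted p = 0.0642), although the direction stayed.

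**Figure D2:**
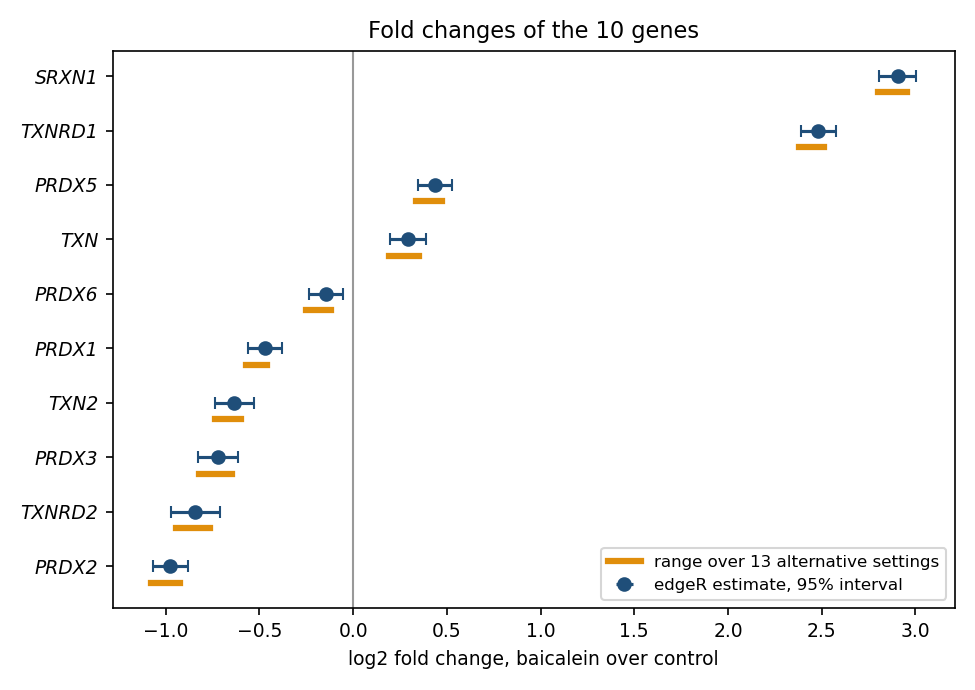
Log2 fold change of each gene (baicalein over control, x axis) with its 95% interval from edgeR in blue (n = 2 libraries per group), and below it in orange the range over 13 alternative settings. SRXN1 and TXNRD1 lie at 2.91 and 2.48, far right of the other 8 genes, which lie between -0.98 and 0.44, and no orange bar crosses 0.

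For 4 of the 10 genes both treated libraries lay above both controls and for the other 6 both lay below. Such separation was common: 43.4% of all genes tested were separated upward, 43.5% downward and 86.9% in either direction. The all-gene median was within 0.04 log2 units of 0 under TMM, DESeq2 and upper quartile scaling, and was -0.10 with library totals alone. Under each of these scalings the 10 genes kept their direction, PRDX6 with -0.18 by upper quartile factors and -0.25 with library totals alone.

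Levels of different genes can be set side by side only per length, here as CPM per kb of annotated exon. In controls PRDX5 was the highest (251 ± 7.93, SD, n = 2), followed by PRDX1 (161 ± 0.0947), TXN (97.5 ± 6.0), PRDX6 (73.2 ± 1.60) and PRDX2 (68.2 ± 2.23). TXN2, PRDX3, TXNRD1 and SRXN1 came next within 24.9 to 29.3 CPM per kb, with PRDX3 and TXNRD1 overlapping in their libraries, and TXNRD2 was last (4.53 ± 0.318). After baicalein PRDX5 was still first (341 ± 6.90), but SRXN1 (187 ± 8.62) and TXNRD1 (142 ± 3.73) had moved from places 9 and 8 to places 2 and 3. They then stood above TXN (119 ± 0.195) and PRDX1 (116 ± 0.224). With the length of the longest coding transcript in place of all exons, TXNRD1 (223 ± 5.84) came before SRXN1 (187 ± 8.62) after baicalein, and PRDX2 took place 3 in controls at 145 ± 4.73, so these places depend on which isoforms are counted.

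**Figure D3:**
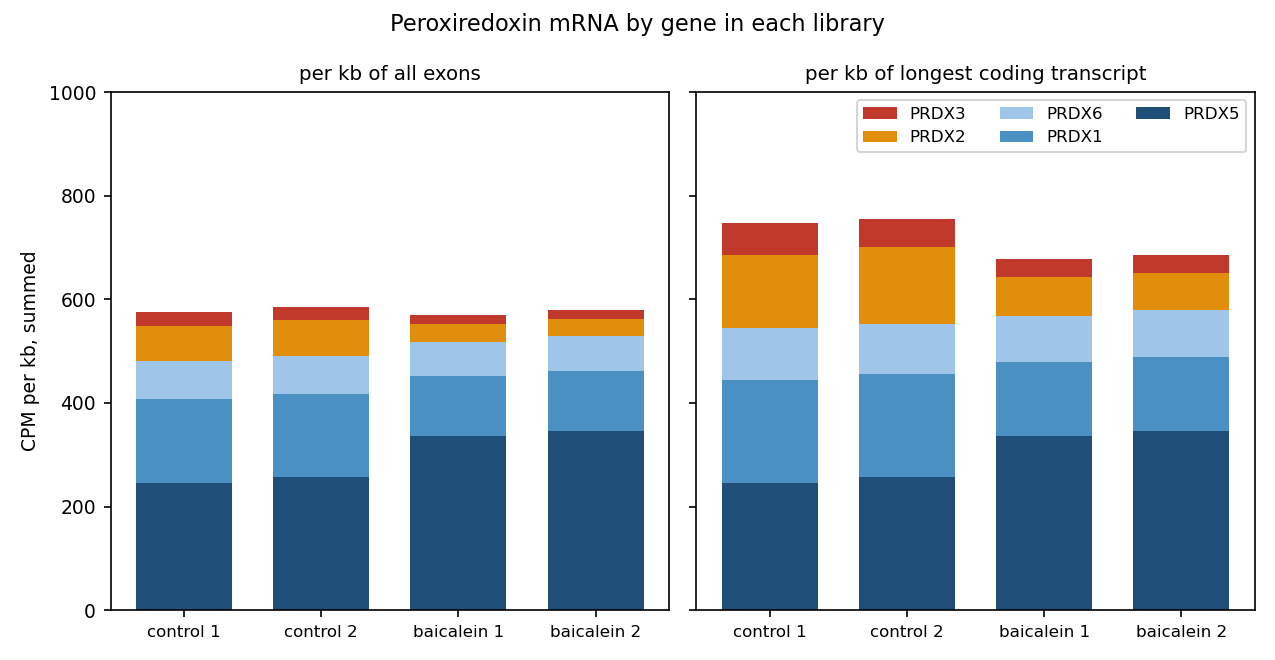
Stacked bars of the 5 peroxiredoxin genes in each library, in CPM per kb of all exons (left) and per kb of the longest coding transcript (right), from 0. PRDX5 (dark blue, bottom) takes a larger part of both treated bars in each panel, while PRDX2 (orange) and PRDX3 (red) take a smaller part.

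The make-up of peroxiredoxin mRNA shifted toward PRDX5, while its sum moved by an amount that depends on the length used. Per kb of exon the 5 genes summed to 576 and 585 in controls and to 569 and 579 after baicalein, and these groups overlapped. Per kb of the longest coding transcript the sums were 747 and 756 in controls and 678 and 686 after baicalein, which did not overlap. PRDX5 made up 42.7% and 43.9% of the exon-based sum in controls and 59.0% and 59.7% after baicalein. The share of PRDX1 went from 28.0% and 27.5% to 20.4% and 20.1%, and that of PRDX2 from 11.6% and 11.9% to 6.27% and 5.81%. PRDX3 went from 4.89% and 4.34% to 2.87% and 2.79%, and PRDX6 stayed between 11.5% and 12.9%. By the other length the share of PRDX5 was 32.9% and 34.0% in controls and 49.5% and 50.4% after baicalein.

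Ratios between 2 genes within a library do not depend on scaling to depth, and 7 of them were computed. Each is given per kb of exon; the smallest two-sided p that an exact permutation test of 2 against 2 libraries can give is 0.333, which is the value for all 7, so they are descriptions. SRXN1 stood at 0.155 times PRDX1 in both controls and at 1.56 and 1.66 times PRDX1 after baicalein, a ratio 10.4 times as high. SRXN1 to PRDX3, the mitochondrial substrate, went from 0.888 and 0.982 to 11.1 and 12.0. Against PRDX1, PRDX2 and PRDX3 summed, SRXN1 went from 9.77 and 9.73 per 100 to 108 and 116 per 100. With the longest coding transcript as the length, the same quantity went from 6.24 and 6.22 per 100 to 71.3 and 77.4 per 100, so whether SRXN1 stood above or below the summed genes after baicalein depends on the length used.

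The cytosolic reductase overtook its substrate gene. TXNRD1 to TXN was 0.255 and 0.269 in controls and 1.17 and 1.21 after baicalein, 4.56 times as high. TXNRD1 to TXNRD2 went from 6.03 and 5.27 to 56.5 and 56.1, and TXN to TXN2 from 3.59 and 3.18 to 6.30 and 6.56. The mRNA of the cytosolic protein thus gained on that of its mitochondrial counterpart for both the reductase and the thioredoxin. Among peroxiredoxins, PRDX1 to PRDX2 went from 2.42 and 2.31 to 3.25 and 3.46. PRDX3 to PRDX5 went from 0.115 and 0.0989 to 0.0487 and 0.0467. Groups did not overlap in any of the 7 ratios. Where the genes of a pair had separated in opposite directions, this follows from the single genes. Separation was also common, at 86.9% of all single genes tested, and no share over gene pairs was computed.

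**Figure D4:**
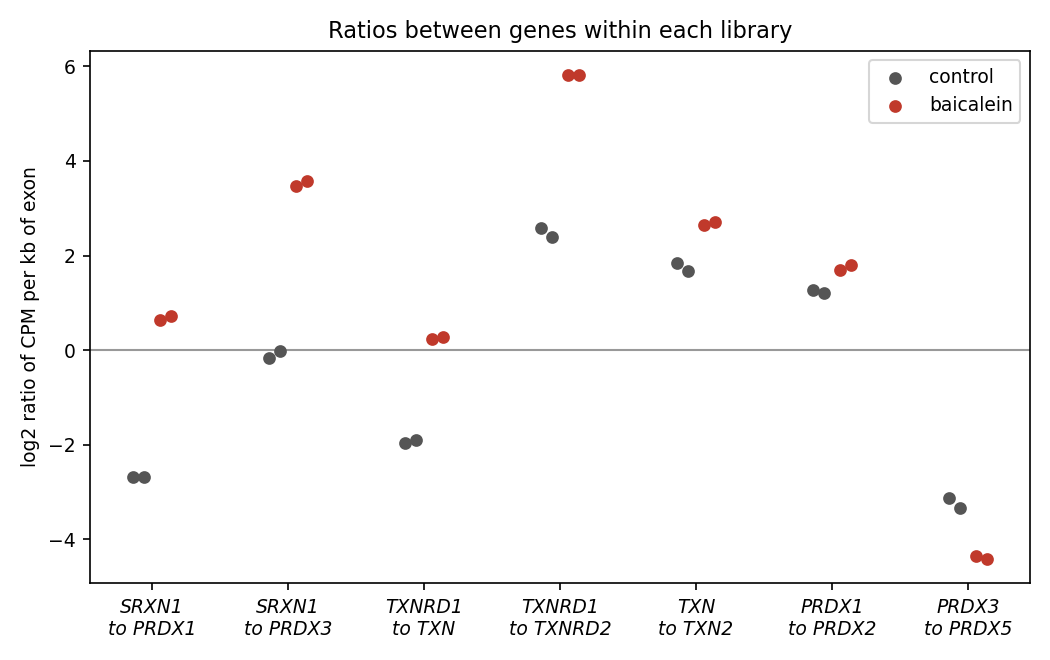
Log2 ratios of CPM per kb of exon between pairs of genes, with 1 point per library, controls in grey and baicalein in red. The ratios of SRXN1 to PRDX1, of SRXN1 to PRDX3 and of TXNRD1 to TXN lie below 0 in both controls and above 0 in both treated libraries.

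By profile over the 4 libraries (distance in log2 CPM from the control mean, among 8778 genes with a mean log2 CPM of at least 4), the genes nearest to SRXN1 were ABLIM3, CD55 and MSMO1, at distances of 0.04 to 0.09. MSMO1 encodes an enzyme of cholesterol synthesis and CD55 a regulator of complement. The nearest to TXNRD1 were FICD, KLHL24 and SEC24D, at 0.02 to 0.04, of which FICD modifies the chaperone BiP and SEC24D is a coat protein of vesicles leaving the endoplasmic reticulum. With 2 groups of 2 libraries, likeness mostly means a like fold change, here 7.28 to 7.79 for the former and 5.57 to 5.66 for the latter.

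Genes around the relay were read from 6 lists. Their counts are to be read beside the shares over all genes tested, 37.4% called higher and 37.6% called lower. Of 9 other thioredoxin-system and thioredoxin-like genes, 3 were higher and 4 lower (median log2 fold change 0.02). TXNIP, which encodes an inhibitor that binds thioredoxin, rose from 33.0 and 30.6 CPM to 109 and 119 CPM (log2 fold change 1.84, SE 0.05). TXNL1, a thioredoxin-like protein bound to the proteasome, rose with 0.87, and TXNDC17 fell with -0.93. TXNDC9 had 31.4 and 27.2 CPM in controls and 31.9 and 32.1 CPM after baicalein and did not pass (edgeR adjusted p = 0.0738), but it did without control 1 (adjusted p = 0.000165) and with a filter of 50 counts (adjusted p = 0.0488).

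Thioredoxin reductases are selenoproteins, and of 7 genes for making and inserting selenocysteine 3 were higher and 3 lower (median 0.32). SEPHS2, itself a selenoprotein, makes the selenophosphate from which selenocysteine is built. It rose 5.92-fold, from 188 and 185 CPM to 1089.7 and 1117 CPM (log2 fold change 2.57, SE 0.04, edgeR adjusted p = 1.23e-22). SECISBP2, which recognises selenoprotein messages, rose with 0.53, and EEFSEC, the elongation factor for selenocysteine, fell with -0.39. The call of SEPHS1 as lower (-0.13) was lost without baicalein 1 (adjusted p = 0.144) and without baicalein 2 (adjusted p = 0.128). PSTK, with 1.52 and 1.94 CPM in controls and 2.27 and 2.12 CPM after baicalein, did not pass (edgeR adjusted p = 0.0825) except without control 2 (adjusted p = 0.0276).

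Of 8 glutaredoxins and methionine sulfoxide reductases 2 were higher and 3 lower (median -0.10). GLRX, the cytosolic glutaredoxin, fell from 4.15 and 3.45 CPM to 0.878 and 1.29 CPM (log2 fold change -1.85, SE 0.19). MSRB1, a selenoprotein that repairs oxidised methionine, fell with -0.74 and MSRB3 rose with 0.48. GLRX3, GLRX5 and MSRB2 had -0.05, 0.02 and -0.15 and did not pass, although with library totals alone GLRX3 and MSRB2 passed as lower, MSRB2 also with upper quartile factors. Of 6 tested genes for glutathione peroxidases, catalase, superoxide dismutase and glutathione reductase, 5 were lower and 1 higher (median -0.48). SOD1, the cytosolic superoxide dismutase, fell from 236 CPM in both controls to 152 CPM in both treated libraries. GPX8 and GPX4, the latter the reductase of lipid hydroperoxides, fell with -0.74 and -0.42. The higher gene, GSR, which encodes glutathione reductase, had 0.17, and with library totals alone it did not pass (0.07, adjusted p = 0.197). Another 4 listed genes were not analysed here.

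Of 11 thioredoxin-domain proteins of the endoplasmic reticulum 8 were higher and 2 lower (median 0.27). ERP44 and DNAJC10, which handle disulfides during protein folding, rose with log2 values of 1.51 and 1.49, and TMX1 fell with -0.91. TXNDC11 was called higher with 0.21. With library totals alone it did not pass (0.11, edgeR adjusted p = 0.0635), which left 7 higher. TMX4 had 0.10 and did not pass (edgeR adjusted p = 0.0709), but did without control 1 (adjusted p = 0.0139) and with a filter of 50 counts (adjusted p = 0.0461). Of 16 tested genes of the NRF2 pathway 14 were higher (median 1.41), and this list holds genes already known to have risen in these libraries, so its count is not independent support. SLC7A11, the cystine carrier, rose with 4.29, GCLM, a subunit of the enzyme that starts glutathione synthesis, with 2.74, and MAFG, a partner of NRF2, with 2.31. MAFK and TALDO1 had 0.09 and 0.00 and did not pass, though MAFK passed as higher without control 2 (adjusted p = 1.59e-07) and TALDO1 as lower with library totals alone. SRXN1 (2.91) and TXNRD1 (2.48) lay above the median of that list, and PRDX1 (-0.47) and TXN (0.29) below it.

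**Figure D5:**
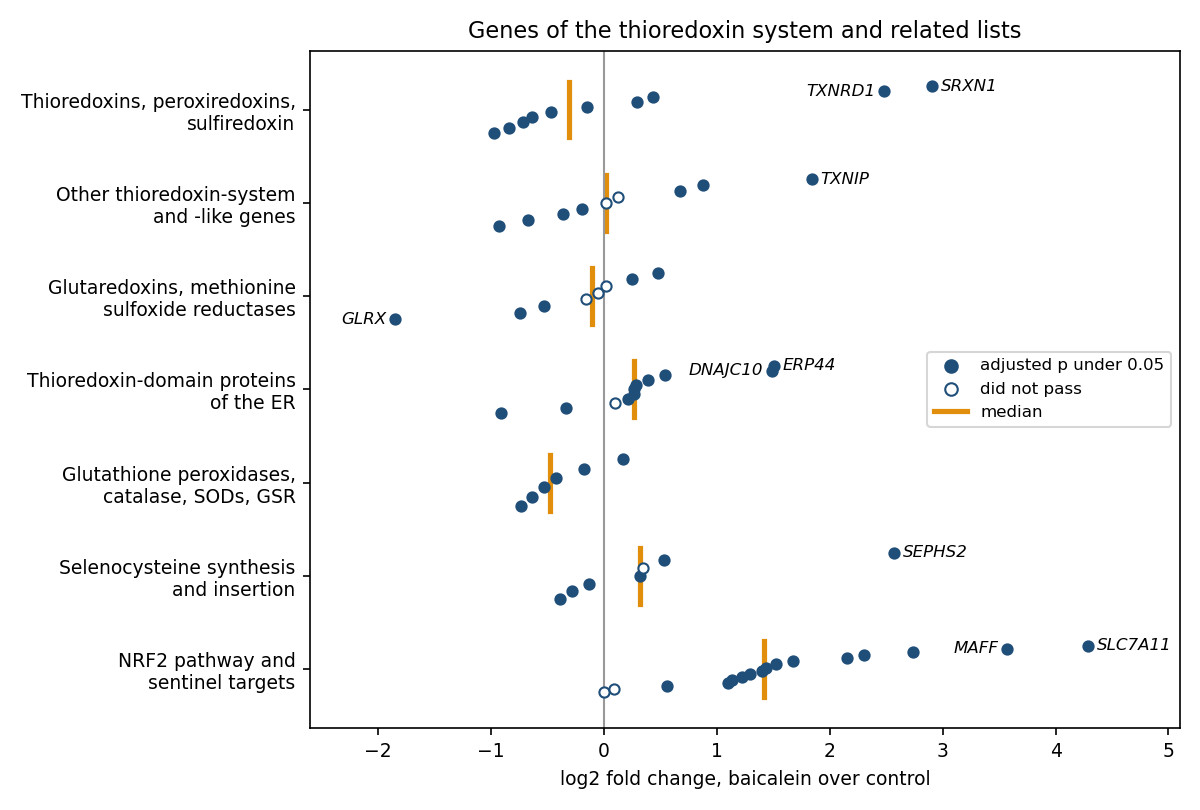
Log2 fold changes (baicalein over control) of every tested gene in the 10-gene set and in 6 related lists, filled where the edgeR adjusted p is under 0.05 and open where it is not, with the median of each list in orange. SRXN1, TXNRD1, SEPHS2, TXNIP, SLC7A11 and MAFF lie at 1.84 or more, while the 6 tested glutathione peroxidase, catalase, dismutase and reductase genes lie between -0.74 and 0.17.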

How the data were processed

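Poly(A) RNA-seq of 4 T47D libraries was used. The deposited table holds raw counts, as whole numbers, for each gene and library. Per the submitters' processing notes the tools were STAR 2.7.8a, RSEM 1.3.3, DESeq2 1.34, FastQC 0.11.8 and cutadapt 2.3, on GRCh38, with no role stated. The sources used here give no annotation release, strand setting or rounding of RSEM estimates, which could shift genes that share reads.

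Columns were matched by sample description, and groups and replicate numbers came from titles. Symbols were present for 17419 of 20515 identifiers; lengths and overlaps came from GENCODE release 29. Counts were tested over all 4 libraries with edgeR 4.0.16 in R 4.3.3 (TMM factors 0.964 to 1.04, filterByExpr with a minimum count of 10 and total of 15, robust quasi-likelihood F test, Benjamini-Hochberg over 18369 genes, threshold 0.05). CPM is scaled by the TMM factors, SE is the log2 fold change over the square root of F, and intervals are 95%. Libraries of a group differed by more than sampling noise (mean chi-square per gene 9.61 in controls and 2.43 after baicalein). The medians were lower, 1.38 in controls and 0.702 after baicalein, so the means are not typical of a gene. This chi-square used library totals without TMM factors. The edgeR fit was tested on simulated data in which few genes changed. That test cannot show how the fit behaves where most genes change, as here, where 75.0% were called. Alternatives were other scalings, filters, DESeq2 1.42.0, limma-voom (limma 3.58.1), a 1.5-fold test, a replicate block and leaving out each library.

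The members and lists were chosen with earlier results of these data known. Named genes are the 10 members, the 3 of each list with the smallest adjusted p, list genes that did not pass, and the 3 profiles nearest to SRXN1 and TXNRD1. Other genes were named after their values were seen only where they overlap a member, are a pseudogene copy or mark a cell type. The rest had a call that turned (GSR, SEPHS1, TXNDC11), appear in a plot (MAFF) or were left out by the filter (ME1). Of the genes that share exon bases with a member, 1 is not reported here, and shared reads limit that member too.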

Additional observations from a re-analysis of the deposited data

How the results depend on the processing

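Over 13 alternatives to the fit, 123 of 130 values of the 10 genes kept their direction and their side of the threshold, 7 lost the call and none changed sign. The test against a 1.5-fold change accounts for 5 of the 7 (TXN, TXN2, PRDX1, PRDX5 and PRDX6) and leaving out a treated library for the other two (PRDX6). That test called 2 members higher and 3 lower, and 3090 and 3581 of all genes. By its construction it also lowered the list counts, to 2 lower for other thioredoxin-like genes, 0 higher for glutaredoxins and methionine sulfoxide reductases, 2 higher and 1 lower for the endoplasmic reticulum list, 0 higher and 1 lower for the peroxidase and dismutase list, and 1 higher and 0 lower for the selenocysteine list. With library totals alone the glutaredoxin list had 5 lower, the peroxidase list 0 higher and the NRF2 list 1 lower (TALDO1). Without a filter the NRF2 list had 1 lower, ME1, which the filter had left out with 0 to 9 counts per library. Leaving out each library in turn gave 4 members higher throughout and 5 to 6 lower, and 6128 to 6944 of all genes higher and 6294 to 6896 lower, where the lone library of a group is assumed to vary like the other group.

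With the replicate number as a block, 4 members were higher and 6 lower, with 6894 and 6909 of all genes, and no list count moved. Deviations of same-numbered libraries correlated at 0.01 across genes. With 2 libraries per group this value cannot show whether same-numbered libraries were handled together. Changing the length used moved the control ratios, for example SRXN1 to PRDX3 from 0.934 to 0.435. The change between groups of the 7 ratios could not move, since a gene has the same length in every library. The length did alter the comparison of the summed peroxiredoxins. Their groups overlapped per kb of exon and not per kb of the longest coding transcript. Only 2 libraries per group limit all of these values.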
